A study of Mus musculus with 6 samples.

Results

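Integrins are surface receptors built from one alpha and one beta chain. They hold a cell to laminin, collagen, fibronectin and vitronectin in the matrix or to counter-receptors on other cells, and they signal through talin, kindlins, integrin-linked kinase and focal adhesion kinase at their short tails. Syndecans are membrane proteoglycans whose heparan sulfate chains bind matrix proteins and growth factors beside integrins. The beta2 integrins pair the *Itgb2* product with an alpha chain such as that of *Itgal*, *Itgam* or *Itgax*. They are integrins of leukocytes and bind ICAMs on endothelium, whereas endothelial cells mainly use beta1 and alphaV beta3 integrins. The genes were taken by symbol, as all rows of the form Itga or Itgb1 to Itgb8, the 4 syndecans, and *Ilk*, *Fermt2*, *Fermt3*, *Tln1*, *Vcl* and *Ptk2*. This gave 36 of the 23282 rows of each file, namely 26 integrin chains, 4 syndecans and 6 adaptors and kinases. The gene family, and its split into 4 leukocyte integrins and 22 other integrins, were selected on the log2 fold changes between the genotypes in these same libraries. The genotype differences below, with their adjusted p-values, therefore describe the libraries and are no independent support for the choice. The 22 other integrins still include chains of leukocytes, such as *Itga4* and *Itgae*.

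RNA was measured by QuantSeq 3′ sequencing in liver sinusoidal endothelial cells (LSECs), the fenestrated cells that line the liver sinusoids, from TXNIP-/- mice (3 libraries) and WT mice (3 libraries). The knockout is of the whole body, on a C57BL/6J background with C57BL/6J controls, so it was not confined to LSECs. The cells were enriched by a density gradient and by magnetic beads against CD146. The age, sex and pooling of these mice, and whether the cells had been cultured before RNA extraction, were not given in the sources used here, and nothing states that the libraries came from separate mice, so p-values measure the spread between libraries, which may be technical.

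The deposited whole-number counts summed to between 9147764 and 10193952 per library. *Txnip* had 191 to 269 counts in the TXNIP-/- libraries and 1901 to 2019 in the WT libraries, a direction that matched the labels. Some *Txnip* reads thus remained in every TXNIP-/- library, and their source was not tested. All 10 pan-endothelial markers were detected, with summed levels of 3341 to 3682 CPM (TMM-scaled counts per 1e6) in TXNIP-/- and 3615 to 4246 CPM in WT libraries. All 10 had a negative log2 fold change (TXNIP-/- minus WT, median -0.18), and 0 were called. All 10 sinusoidal markers were detected too, at 2504 to 3045 and 2817 to 5162 CPM in sum, and 3 of them (*Stab1*, *Stab2* and *Mrc1*) were called lower in TXNIP-/-. The log2 fold changes of these 10 were all negative as well, with a median of -0.38. *Xist* was counted in all 6 libraries and *Ddx3y* in none. The ribosomal RNA row *Rn45s* held 10.03% and 9.68% of the counts in WT replicates 1 and 2 and 16.8% to 18.6% in the other 4 libraries, so these 2 WT libraries stood apart. In a fit with one term for them the genotype difference rests on WT replicate 3 alone, and values from it are given where they change a result.

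Of the 36 genes, 25 passed edgeR's filter on low counts and were tested, and 11 were not. QuantSeq reads come from the 3′ end of a transcript, so counts do not grow with transcript length and levels may be set side by side between genes, apart from differences in how each 3′ end was annotated and aligned. Differences between the genotypes come from the quasi-likelihood test of edgeR, with p-values adjusted over all 11583 tested rows. A gene was called at an adjusted p under 0.05, which 174 rows or 1.5% reached (67 higher and 107 lower in TXNIP-/-). Without normalization factors the calls were 36 higher and 150 lower. Among the 25 tested genes, 1 was called, *Itgb2*, which was lower. Lower calls made up 0.924% of all tested rows.

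The integrin repertoire of these LSECs rested on few chains. *Itgb1*, the shared beta chain of most matrix receptors (chromosome 8 of GRCm38, 128685654 to 128733200), had 698, 757 and 728 CPM in TXNIP-/- replicates 1, 2 and 3 and 706, 696 and 871 CPM in WT replicates 1, 2 and 3. *Itgb3*, the beta chain of the vitronectin receptor (chromosome 11, 104608000 to 104670476), had 427, 449 and 436 CPM in TXNIP-/- and 489, 497 and 530 CPM in WT libraries. The lowest *Itgb1* value lay above the highest *Itgb3* value, and together they took 98.7% to 99.6% of all beta chain counts. *Itgb5* had 2.31 to 5.44 CPM. *Itgb6* and *Itgb4*, epithelial chains, had at most 8 and 31 counts in any library.

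Among the alpha chains, 5 took 95.3% to 97.3% of the alpha chain counts. They were *Itga3* and *Itga6* (laminin receptors), *Itga9* (a tenascin and VCAM1 receptor), *Itgav* (the RGD-binding partner of beta3 and beta5) and *Itga1* (a collagen receptor). Their mean levels over the 6 libraries were 107 CPM for *Itga3*, 105 for *Itga9*, 98.0 for *Itgav*, 85.3 for *Itga6* and 34.3 for *Itga1*. The ranges of *Itga3*, *Itga9* and *Itgav* over the 6 libraries overlapped, as did those of *Itgav* and *Itga6*, and *Itga6* lay above *Itgav* in WT replicates 1 and 2. The order of *Itga3*, *Itga9* and *Itgav*, and that of *Itgav* and *Itga6*, is therefore not set by these data. *Itga6* lay below *Itga3* and *Itga9* in every library, and *Itga1* lay below the other 4 in every library. *Itga5*, the fibronectin receptor chain, was low, at 2.90 to 6.22 CPM. The collagen receptor chains *Itga2* and *Itga11* had at most 8 and 2 counts. *Itga11*, *Itgad*, *Itgax*, *Itgb7* and *Itgb8* had 2 or fewer counts in every library. The detection floor was set at 3 counts, or 0.286 to 0.335 CPM depending on the library, so these 5 genes were not detectable at this depth. Counts carry no molecular identifiers, so floors and intervals cover counting error only.

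**Figure D1:**
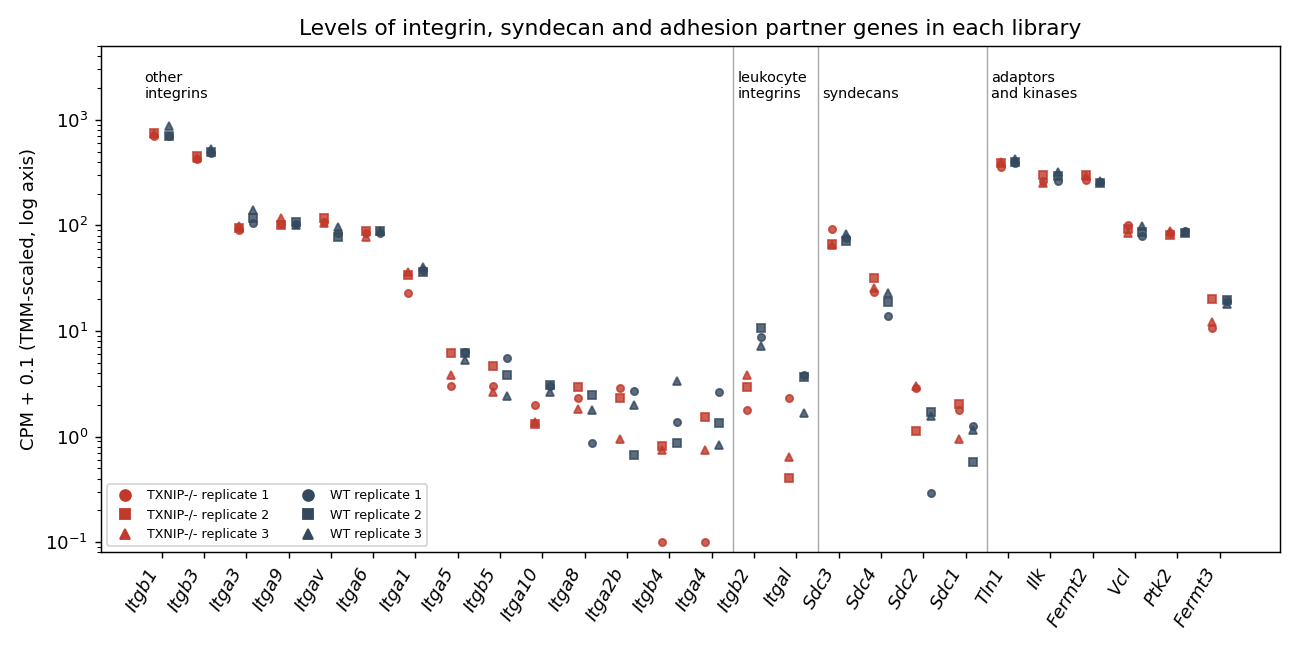
Level of each gene with a mean of at least 10 counts, as TMM-scaled CPM plus 0.1 on a log axis, with 1 point per library (red, TXNIP-/-; blue, WT; the symbol gives the replicate) and gene families separated by grey lines. *Itgb1* and *Itgb3* sit above all other integrins, and *Itgb2* is the leukocyte integrin whose WT points all lie above its TXNIP-/- points.

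**Figure D2:**
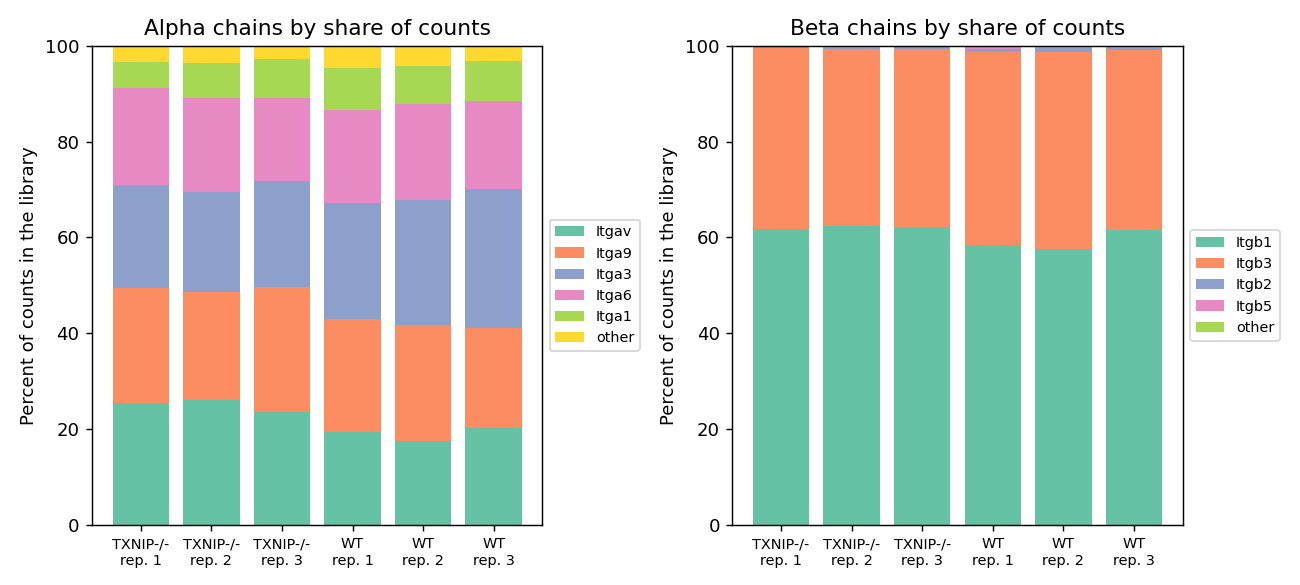
Share of alpha chain counts (left) and beta chain counts (right) taken by each gene in each of the 6 libraries, in percent. *Itgav* takes 23.5% to 26.1% of alpha chain counts in TXNIP-/- libraries and 17.5% to 20.2% in WT libraries, and *Itgb2* is a thin band in every library.

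Leukocyte integrins were scarce, and *Itgb2* fell in the TXNIP-/- libraries. *Itgb2*, the common beta chain of the leukocyte integrins (chromosome 10, 77530252 to 77565708, plus strand), had 15, 28 and 35 counts in TXNIP-/- replicates 1, 2 and 3 and 89, 111 and 67 in WT replicates 1, 2 and 3. As CPM these were 1.67, 2.85 and 3.74 against 8.65, 10.6 and 7.05. The genotypes did not overlap, and the mean fell from 8.76 ± 1.76 (SD, n = 3) to 2.76 ± 1.04 CPM, a log2 fold change of -1.66 (standard error 0.39, 95% interval -2.48 to -0.84, adjusted p = 0.0397, edgeR). The call was lost with several single libraries left out, where the adjusted p was 0.141 without TXNIP-/- replicate 1, 0.11 without TXNIP-/- replicate 2, 0.169 without WT replicate 1 and 0.275 without WT replicate 2 (edgeR). Once WT replicates 1 and 2 had their own term, the log2 fold change was -1.35 with an adjusted p of 0.218 (edgeR). Over all 16 alternatives the adjusted p ran from 0.00316 to 0.275 and the direction was the same. In bulk RNA, fewer cells of a type and less RNA per cell cannot be told apart.

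*Itgal*, the alpha chain of LFA-1 (chromosome 7, 127296260 to 127335138), had 20, 3 and 5 counts in TXNIP-/- and 38, 37 and 15 in WT libraries. TXNIP-/- replicate 1 lay above WT replicate 3, so the groups overlapped, and the log2 fold change of -1.52 had a 95% interval from -3.13 to 0.09 (adjusted p = 0.464, edgeR). The value was -2.78 without TXNIP-/- replicate 1 and -0.63 with the extra term for WT replicates 1 and 2. *Itgal* passed the filter mainly through its WT libraries. *Itgam*, the alpha chain of Mac-1 on macrophages and neutrophils (chromosome 7, 128062640 to 128118491), had 2, 0 and 3 counts in TXNIP-/- and 5, 3 and 4 in WT libraries. *Itgax*, a dendritic cell and macrophage chain that lies beside it (128129547 to 128150657), had 1 count in WT replicate 1 and 0 in the other libraries. Neither was tested. Taken as one sum, the 4 leukocyte integrins had 4.13, 3.16 and 4.597 CPM in TXNIP-/- and 12.9, 14.4 and 9.05 CPM in WT libraries. They made up 0.19% to 0.284% of all integrin counts in TXNIP-/- and 0.478% to 0.87% in WT libraries. The 95% Wilson intervals of these shares reached 0.383% at most in TXNIP-/- and 0.387% at least in WT libraries. These intervals cover counting error within a library and not the spread between libraries. As the split was selected on these same libraries, they are no test of the genotypes.

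None of the other integrins was called. The 2 leukocyte integrins tested had a median log2 fold change of -1.59, and the 13 of the 22 other integrins that were tested had -0.19 (4 higher, 9 lower), against 0.003 over all tested rows. The first median is that of *Itgb2* and *Itgal* alone, and *Itgal* passed the filter mainly through its WT libraries. As the split was selected on these fold changes, the medians only describe it. For comparison, the 10 pan-endothelial markers had a median log2 fold change of -0.18 (0 higher, 10 lower). The log2 fold changes of the other integrins ran from -1.10 to 0.49, and 0 of the 13 were called by edgeR or by DESeq2. At an unadjusted p under 0.05 stood 3 of the 13 (23.1%) and 5 of all 25 genes (20.0%), against 11.6% of all tested rows.

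**Figure D3:**
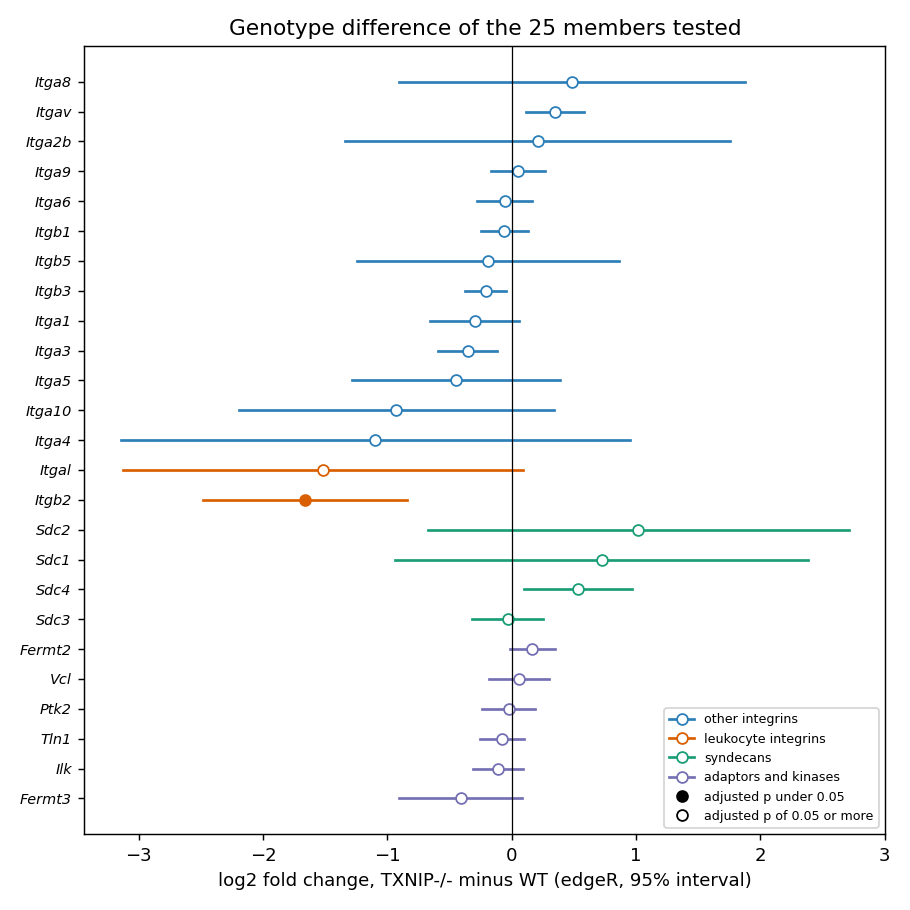
Log2 fold change (TXNIP-/- minus WT, edgeR) with its 95% interval for the 25 genes tested, coloured by family, with a filled point where the adjusted p was under 0.05. *Itgb2*, at -1.66, is the one filled point, and of the abundant chains *Itgb1*, *Itga6* and *Itga9* have intervals that include 0 and *Itgav*, *Itga3* and *Itgb3* do not.

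Markers of macrophages moved with the leukocyte integrins. Of 14 Kupffer cell and macrophage markers, the resident macrophages of the sinusoid, 13 were tested and 11 were called, all lower in TXNIP-/-. Their summed level was 312 to 347 CPM in TXNIP-/- and 759 to 798 CPM in WT libraries, and the median log2 fold change was -1.48. Among the defining markers, *Clec4f* had 7.16 CPM in TXNIP-/- and 15.9 CPM in WT libraries on average, *Vsig4* had 27.4 and 76.2 CPM, and *Timd4*, below the filter, had 0.552 and 0.557 CPM. *Clec4f* was not called (adjusted p = 0.0926, edgeR). Of 15 pan-leukocyte markers, 14 were tested, all with a negative log2 fold change, and 4 were called (*Laptm5*, *Tyrobp*, *Fcer1g* and *Lcp1*). The called number was 2 without WT replicate 1 and also 2 with the extra term for WT replicates 1 and 2, whereas the macrophage list had 11 to 13 called under every alternative. Their summed level was 306 to 316 CPM in TXNIP-/- and 435 to 453 CPM in WT libraries, with *Lsp1* at 0 in every library. Neutrophil and lymphocyte markers were near the floor, with summed levels of 0 to 3.35 CPM and 0.381 to 1.34 CPM. *Mpo*, *Elane*, *Cd3d* and *Cd3e* had no count. Within each library, the leukocyte integrins had 1.29, 1.01 and 1.32 counts per 100 counts of the 14 macrophage markers in TXNIP-/- and 1.62, 1.89 and 1.16 in WT libraries. These ratios overlapped between the genotypes. *Fermt3*, described next, had 3.31, 6.33 and 3.48 counts per 100 macrophage marker counts in TXNIP-/- and 2.39, 2.58 and 2.30 in WT libraries, which did not overlap and lay in the other direction. Per 100 counts of the 15 pan-leukocyte markers, the leukocyte integrins had 1.31, 1.03 and 1.46 counts in TXNIP-/- and 2.91, 3.31 and 1.997 in WT libraries, without overlap. The pan-leukocyte sum is carried by *Arhgdib*, at 163 of 312 CPM in TXNIP-/- and 182 of 444 CPM in WT libraries on average, which was not called (log2 fold change -0.17), while the median of the list was -1.05. Per the study's methods, Kupffer cells were the fraction that the CD146 beads left behind. Macrophage marker RNA was still counted in every library, at the sums given above. The part of macrophage RNA in the lower *Itgb2* level was not tested.

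**Figure D4:**
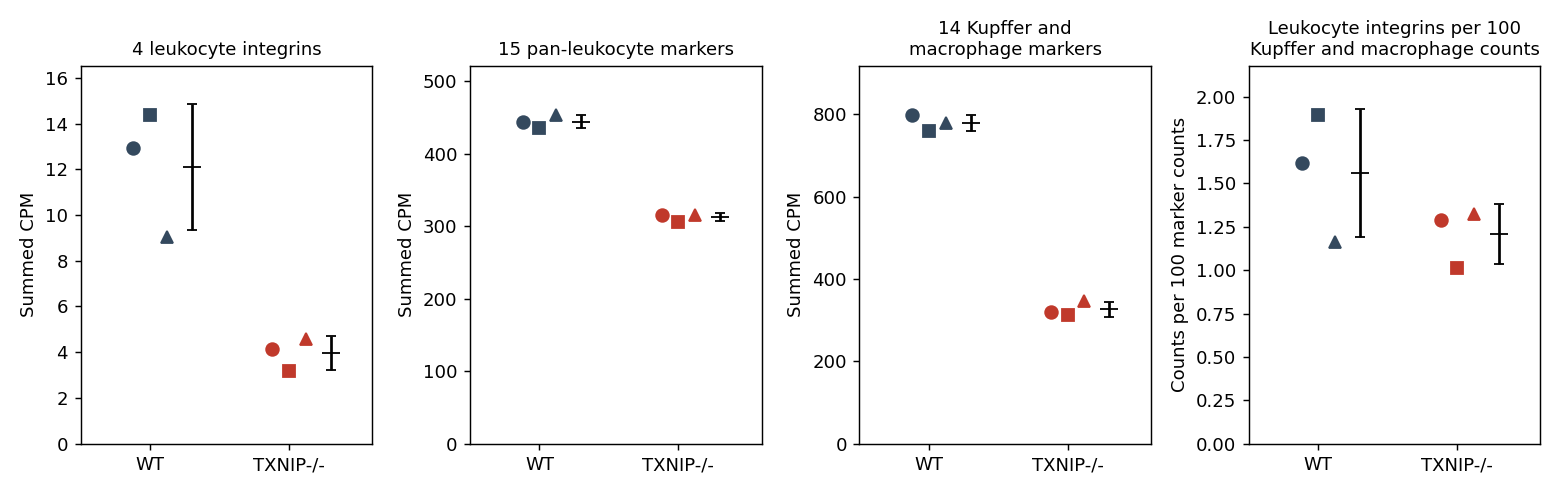
Summed CPM of the 4 leukocyte integrins, 15 pan-leukocyte markers and 14 Kupffer cell and macrophage markers, and leukocyte integrin counts per 100 macrophage marker counts (right), with 1 point per library, and the mean ± SD (n = 3) beside them. The genotypes are apart in the first 3 panels and overlap in the last.

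*Fermt3* encodes kindlin-3, the integrin activator of blood cells, and *Fermt2* encodes kindlin-2, its counterpart in most adherent cells. *Fermt3* had 10.6, 19.8 and 12.1 CPM in TXNIP-/- and 19.0, 19.6 and 17.9 CPM in WT libraries. TXNIP-/- replicate 2 lay above all WT libraries, and the log2 fold change was -0.41 (95% interval -0.91 to 0.09, adjusted p = 0.546, edgeR). It was -0.73 without that library and -0.25 without TXNIP-/- replicate 1. *Fermt2* had 266, 303 and 293 CPM in TXNIP-/- and 256, 249.9 and 262 CPM in WT libraries. The groups did not overlap, and the log2 fold change of 0.17 (standard error 0.09) was not called (adjusted p = 0.483, edgeR). *Fermt3* made up 3.83% to 6.13% of the counts of both kindlins in TXNIP-/- and 6.40% to 7.28% in WT libraries, so *Fermt2* was the main kindlin in all 6. The last 500 bases of *Fermt3* overlap an exon of *Trpt1* on the opposite strand by 89 bases.

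The chains of the alphaV beta3 receptor lay on opposite sides of 0, and neither was called. *Itgav* (chromosome 2, 83724397 to 83806916) had 108, 117 and 104 CPM in TXNIP-/- and 84.1, 77.9 and 96.8 CPM in WT libraries. All 3 TXNIP-/- libraries lay above the WT libraries, with a log2 fold change of 0.35 (95% interval 0.12 to 0.58, adjusted p = 0.163, edgeR). *Itgb3* was lower in all 3 TXNIP-/- libraries, with a log2 fold change of -0.21 (95% interval -0.37 to -0.04, adjusted p = 0.285, edgeR). There were 25.2, 26.1 and 24.0 *Itgav* counts per 100 *Itgb3* counts in TXNIP-/- and 17.2, 15.7 and 18.3 in WT libraries, a ratio within each library that no scaling alters. By contrast, *Itgb3* counts per 100 *Itgb1* counts were 61.3, 59.3 and 59.9 in TXNIP-/- and 69.2, 71.4 and 60.9 in WT libraries, which overlapped. The *Itgav* difference was called without WT replicate 3 (0.44 on the log2 scale, edgeR adjusted p = 0.028), and was 0.18 with the extra term. *Itgb3* and *Itga2b* also form the fibrinogen receptor of platelets. *Itga2b* had 6 to 27 counts per library and *Itgb3* had 3828 to 5217. The platelet markers summed to 17.01 to 25.5 CPM in TXNIP-/- and 12.4 to 17.6 CPM in WT libraries. Most of this was *Pf4*, a platelet chemokine, at 109 to 201 counts (log2 fold change 0.41, adjusted p = 0.506, edgeR). *Gp1ba* had 2 to 9 counts, and *Gp9* and *Gp6* had none. Their part in the *Itgb3* level was not tested.

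Among the laminin and collagen receptors, *Itga3* (chromosome 11, 95044474 to 95076801) had 90.8, 93.6 and 98.4 CPM in TXNIP-/- and 105, 117 and 139 CPM in WT libraries. The groups did not overlap, and *Itga3* was not called (log2 fold change -0.35, 95% interval -0.59 to -0.12, edgeR adjusted p = 0.171). It was -0.24 without WT replicate 3 and -0.56 with the extra term for WT replicates 1 and 2, where it was called (adjusted p = 0.024, edgeR). *Itga1* had 23.0, 33.4 and 35.9 CPM in TXNIP-/- and 37.7, 35.7 and 40.2 CPM in WT libraries. TXNIP-/- replicate 3 lay above WT replicate 2, and the difference was not called (log2 fold change -0.30, adjusted p = 0.542, edgeR), at -0.13 without TXNIP-/- replicate 1. *Itga6* (-0.06, 95% interval -0.28 to 0.16) and *Itgb1* (-0.06, -0.25 to 0.13) were not called, and their intervals are narrow around 0. *Itga6* had 85.4, 88.0 and 77.5 CPM in TXNIP-/- and 84.4, 88.9 and 87.7 CPM in WT libraries. With the extra term *Itgb1* was at -0.26. *Itga9* had 102, 102 and 117 CPM in TXNIP-/- and 102, 107 and 99.9 CPM in WT libraries, with a log2 fold change of 0.05, and -0.04 without normalization factors. *Itga5* had 2.90, 6.11 and 3.74 against 6.22, 6.09 and 5.16 CPM, and *Itgb5* had 2.90, 4.58 and 2.57 against 5.44, 3.71 and 2.31 CPM. The genotypes overlapped for each of these chains. *Itga5* (-0.45, 95% interval -1.29 to 0.39) and *Itgb5* (-0.19, -1.24 to 0.86) were too low for a narrow interval, and *Itga5* ran from -0.81 without TXNIP-/- replicate 2 to -0.24 without TXNIP-/- replicate 1. *Itga4*, a VCAM1 receptor of leukocytes, had 0, 14 and 6 counts against 26, 13 and 7 (log2 fold change -1.10, 95% interval -3.14 to 0.95). This value ran from -2.17 without TXNIP-/- replicate 2 to -0.51 without WT replicate 1 and -0.54 without TXNIP-/- replicate 1, and was -0.078 with the extra term. *Itga8*, an RGD-binding chain of mesenchymal cells, had 20, 28 and 16 against 8, 25 and 16 (0.49, -0.91 to 1.88), and its value was 0.15 without WT replicate 1. Both overlapped between the genotypes. *Itgae*, a chain of mucosal lymphocytes, had at most 6 counts and was not tested.

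3 scarce integrins are singled out after their values were seen, because their groups did not overlap. Over all tested rows 17.4% had groups that did not overlap, and no such share is given for rows below the filter. *Itga7*, a laminin receptor of muscle and mural cells, had 11, 8 and 20 counts in TXNIP-/- and 3, 1 and 0 in WT libraries, and *Itgb4*, the hemidesmosome chain, had 0, 7 and 6 against 13, 8 and 31. Both were below the filter and were not tested. The groups of *Itgb4* were parted only by 7 counts in TXNIP-/- replicate 2 against 8 in WT replicate 2 (0.713 against 0.762 CPM). Stellate and contractile markers were higher beside *Itga7*. The 11 markers summed to 58.3 to 71.1 CPM in TXNIP-/- and 31.1 to 35.0 CPM in WT libraries, and 2 of the 9 tested were called, *Dcn* and *Acta2* (1 without WT replicate 1, and 1 with the extra term). Their part in the *Itga7* counts was not tested. *Itga10*, a collagen receptor of cartilage, had 17, 12 and 12 counts in TXNIP-/- and 30, 31 and 24 in WT libraries (log2 fold change -0.93, 95% interval -2.19 to 0.34, adjusted p = 0.608, edgeR). It lies on chromosome 3 (96645584 to 96664519), 83701 bases beyond the end of the deleted gene *Txnip*, and it is the only one of the 36 on that chromosome. Whether the altered locus bears on it was not tested.

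All 4 syndecans were tested. *Sdc3* was the most abundant in every library, with 91.8, 66.0 and 65.5 CPM in TXNIP-/- and 75.7, 70.6 and 82.1 CPM in WT libraries. Its groups overlapped and its log2 fold change was -0.03 (95% interval -0.32 to 0.25). *Sdc4*, a focal adhesion co-receptor for fibronectin (chromosome 2, 164424247 to 164443887), had 23.3, 31.8 and 25.1 CPM in TXNIP-/- and 13.7, 18.9 and 22.9 CPM in WT libraries. The highest WT library lay just below the lowest TXNIP-/- library, and the log2 fold change of 0.53 (95% interval 0.10 to 0.97) was not called (adjusted p = 0.301, edgeR). Giving WT replicates 1 and 2 their own term left 0.22. *Sdc2*, a syndecan of mesenchymal and endothelial cells, had 25, 10 and 27 counts against 2, 17 and 14, and *Sdc1*, the syndecan of epithelia and plasma cells, had 15, 19 and 8 against 12, 5 and 10. Their log2 fold changes were 1.02 and 0.72 with standard errors of 0.80 and 0.79, within the spread between libraries, and that of *Sdc2* was 0.52 without WT replicate 1. The median of the 4 log2 fold changes was 0.63, of which 3 were positive. As a sum, the 4 syndecans had 94.4 to 119.6 CPM in TXNIP-/- and 90.8 to 107.5 CPM in WT libraries, which overlapped. *Sdc3* shares 222 of its last 500 bases with the antisense gene *Gm26716*, whose reads cannot be told apart if strand was not used.

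None of the adaptors and kinases at the integrin tail was called. *Tln1*, which encodes the integrin activator talin-1, had 357, 393 and 396 CPM in TXNIP-/- and 391, 397 and 422 CPM in WT libraries. *Ilk*, integrin-linked kinase, had 263, 298 and 251 against 265, 292 and 317 CPM. The groups overlapped for both, with log2 fold changes of -0.08 (95% interval -0.25 to 0.10) and -0.11 (-0.31 to 0.09, and -0.23 with the extra term). *Ptk2*, focal adhesion kinase, had 85.0, 80.8 and 88.9 against 88.4, 84.8 and 85.9 CPM (log2 fold change -0.03, 95% interval -0.24 to 0.19). *Vcl*, the actin linker vinculin, had 99.8, 93.0 and 83.7 against 79.2, 86.5 and 99.4 CPM (0.06, -0.18 to 0.30), and its estimate was -0.02 without normalization factors. The median of the 6 genes including the kindlins was -0.05, and 0 were called by edgeR or by DESeq2, with 0 at an unadjusted p under 0.05. The last 500 bases of *Vcl* and 413 of those of *Ilk* overlap exons of *Ap3m1* and *Taf10* on the opposite strand.

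Counted by overlap of the libraries, 7 of the 25 tested genes (28.0%) had groups that did not overlap, 4 lower (*Itgb2*, *Itgb3*, *Itga3* and *Itga10*) and 3 higher (*Itgav*, *Sdc4* and *Fermt2*). Over all tested rows this share was 17.4%, with 8.82% lower and 8.58% higher.

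Genes around this receptor system were read from 3 further lists. Of 40 other genes of the adhesion complex, 39 were tested and 0 were called by edgeR or by DESeq2. At an unadjusted p under 0.05 (edgeR) stood 5 of the 39 (12.8%), against 11.6% of all tested rows. The number called was 1 without WT replicate 3 and 1 with no filter, lower in each. The smallest p-values belonged to the actin crosslinker *Actn4* (log2 fold change -0.30), the Rap1 effector *Apbb1ip*, which serves leukocyte integrins (-0.86), the scaffold *Git1* (0.36) and paxillin, *Pxn* (-0.26), with adjusted p-values from 0.159 to 0.293 (edgeR). *Apbb1ip* had 53, 36 and 60 counts in TXNIP-/- and 111, 97 and 86 in WT libraries, without overlap. Of 33 integrin ligand genes, 24 were tested and 2 were called, both higher, against 0.578% of all tested rows called higher. Without WT replicate 3 there were 4 called higher and 1 lower, and DESeq2 called 3 higher. At an unadjusted p under 0.05 (edgeR) stood 7 of these 24 (29.2%), 6 higher and 1 lower. *Thbs1*, which encodes the matricellular ligand thrombospondin-1, had 107, 128 and 105 CPM in TXNIP-/- and 56.7, 62.8 and 58.1 CPM in WT libraries. It rose by 0.94 on the log2 scale (standard error 0.11, edgeR adjusted p = 0.000112), and was called under all 16 alternatives. *Tnc*, which encodes tenascin-C, had 25.01, 38.9 and 22.8 CPM in TXNIP-/- and 15.7, 14.8 and 14.1 CPM in WT libraries, a rise of 0.96 on the log2 scale (standard error 0.21, edgeR adjusted p = 0.0273). Its call was lost without TXNIP-/- replicate 1 (edgeR adjusted p = 0.0585), TXNIP-/- replicate 2 (0.174, log2 fold change 0.68), WT replicate 1 (0.1002) or WT replicate 2 (0.108), with the extra term (0.106) and without normalization factors (0.0576). The stellate markers above were higher beside both ligands, and their part was not tested. *Lamb1* (0.91), *Postn* (0.82), *Lama4* (0.29) and *F11r* (-0.29) followed by p and were not called. *Icam1* and *Icam2*, the ligands of the leukocyte integrins on endothelium, had log2 fold changes of 0.14 and 0.22 and were not called. Of 30 heparan sulfate and syndecan partner genes, 23 were tested, 0 were called by edgeR or DESeq2 and 0 had an unadjusted p under 0.05, with a median log2 fold change of 0.009. The smallest p-values belonged to *Gpc1* (1.04), *Prkca* (0.47), *B4galt7* (1.07) and *Ndst1* (0.11), with adjusted p-values from 0.563 to 0.793 (edgeR).

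**Figure D5:**
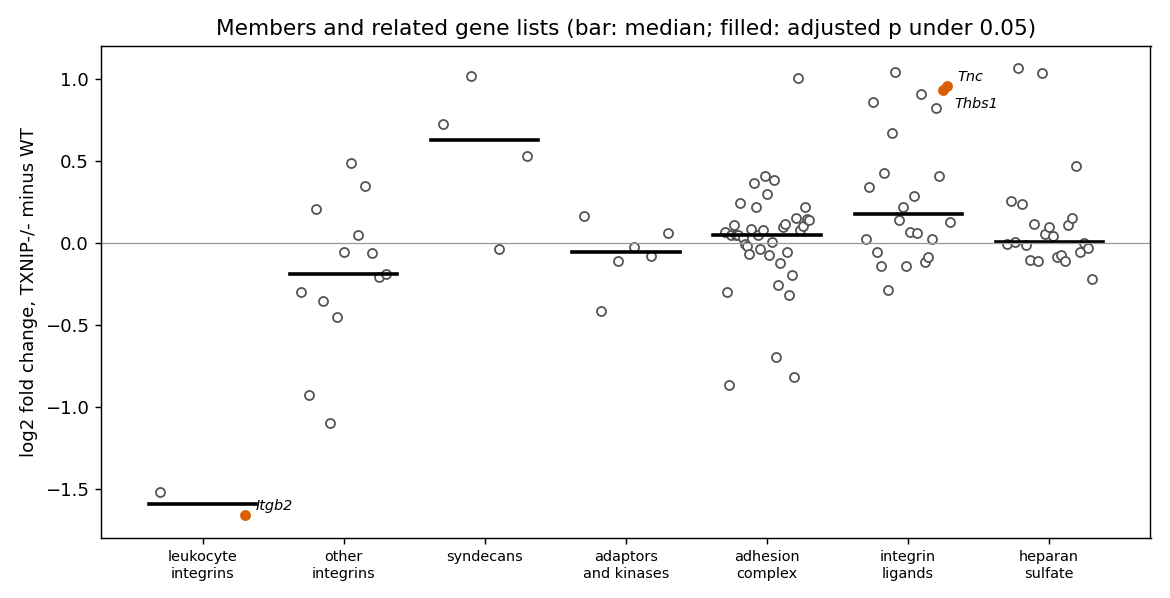
Log2 fold change (TXNIP-/- minus WT) of each tested gene in the 4 families and in the lists of adhesion complex, integrin ligand and heparan sulfate genes, with a bar at the median and filled points where the adjusted p was under 0.05. *Itgb2* is filled and low, and *Thbs1* and *Tnc* are filled and high.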

How the data were processed

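LSEC RNA from 3 TXNIP-/- and 3 WT libraries was used, grouped by the labels. The authors sequenced QuantSeq 3′ libraries, aligned the reads with Bowtie2 (build mm10, per the submitters' processing notes) and used bedtools to count alignments per gene, reads with several alignments included. The deposited values are raw counts. Versions, annotation and use of strand were not given in the sources used here. In R 4.3.3, edgeR 4.0.16 was run with filterByExpr, TMM, glmQLFit and glmQLFTest, a design of genotype alone and p-values adjusted by Benjamini-Hochberg, and was checked on simulated data. Standard errors come from the F statistic. Positions and 3′ ends are those of GENCODE M21 on GRCm38. Alternatives were DESeq2 1.42.0, limma-trend (limma 3.58.1, prior count 2), 3 other normalizations, 2 other filters, no *Rn45s*, the replicate block, a term for WT replicates 1 and 2, and each library left out. Members, lists and alternatives were chosen with earlier results of these data known. Among members with a mean of at least 10 counts, library values are given for called genes, leukocyte integrins, syndecans, adaptors and the 10 highest integrins. From each pathway list the called genes and the next 4 by p are named. Marker lists were fixed with them.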

Additional observations from a re-analysis of the deposited data

How the results depend on the processing

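*Itgb2* was the 1 gene called in the reported fit, and the number called was 0 with the replicate block (adjusted p = 0.0975 for *Itgb2*, edgeR) and 0 to 2 with a library left out in turn, where the second was *Itgav*. The deviations of same-numbered libraries had correlations of -0.0296, 0.0167 and -0.0469, so no shared replicate effect was seen. Whether same-numbered libraries were prepared together was not given in the sources used here, and these correlations cannot settle it. Giving WT replicates 1 and 2 their own term, the median log2 fold change was -0.99 for leukocyte integrins, -0.078 for other integrins (-0.066 without a filter), 0.36 for syndecans and -0.13 for adaptors and kinases, and 1 gene, *Itga3* in place of *Itgb2*, was called. Without normalization factors it was -0.14 for adaptors and kinases and -0.29 for other integrins. With a library left out, the medians ran from -2.09 to -1.39 for leukocyte integrins, from 0.43 to 0.78 for syndecans, from -0.23 to -0.098 for other integrins and from -0.068 to -0.031 for adaptors and kinases. Signs turned for genes that were never called. Without normalization factors *Itga9* was at -0.037 and *Vcl* at -0.020. With the term for WT replicates 1 and 2 *Itgb5* was at 0.53 and *Vcl* at -0.11. With a library left out, the lowest and highest values were -0.21 and 0.66 for *Itga2b*, -0.026 and 0.082 for *Itga9*, -0.12 and 0.052 for *Itgb1*, -0.49 and 0.14 for *Itgb5*, -0.067 and 0.0070 for *Ptk2*, -0.21 and 0.044 for *Sdc3* and -0.018 and 0.15 for *Vcl*. *Tnc* also lost its call with the replicate block (edgeR adjusted p = 0.0588). Of 432 values of single genes under alternatives, 402 kept direction and side of the threshold, and 15 turned sign. The 13 values that lost a call all belonged to *Itgb2* or *Tnc*. Among these genes only *Itgb2*, *Tnc* and *Thbs1* were called in the reported fit, so the 402 says little on how firm the calls are. Over all rows, 174 were called in the reported fit, 302 by DESeq2, 346 without a filter, 104 with the block, 367 without WT replicate 3 and 89 to 112 without another library. The cause was not tested. Depth limits the scarce genes, with standard errors from 0.60 for *Itga10* to 0.97 for *Itga4*.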
